A study of Homo sapiens with 8 samples.

Results

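The genes described here are 9 genes of retinoic acid synthesis, breakdown and response, taken by name from all 58217 genes with at least 1 quantified transcript. They are ALDH1A2, DHRS3, CYP26A1, CYP26B1, CYP27C1, CRABP1, CRABP2, RARA and RARB, and all 9 passed the filter on low counts. RNA-seq was run on oligodendrocyte progenitor cells (OPCs) that had spent 2 days on a coated plate and that were derived from the embryonic stem cell line H9, a widely used established human line. The study asked how the coating affects these cells. Matrigel, a basement membrane extract, is represented by 2 libraries, full-length vitronectin (VN) by 3, and VNP2, a designed peptide derived from VN and fused to a mussel adhesive protein, by 3.

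In the paper, OPCs were expanded and seeded in an OPC medium with retinoic acid, a Smoothened agonist (SAG), insulin and basic fibroblast growth factor. It names no other medium for the cells of these libraries. None of the 3 groups had forced expression of SOX10. Every gene below was therefore measured in cells that had been expanded with retinoic acid from outside, and no group without it was analysed here. Nothing in the labels says that the replicates were separate cultures, so the p-values measure the spread between these libraries, which may be technical. The libraries held between 37997896 and 39429453 estimated counts. SOX10 had 20 estimated counts over all 8 libraries together and the myelin gene MAG 35. All 6 tested genes of a list of OPC and oligodendrocyte markers, however, differed across the substrates (19.3% of all tested genes did). On VNP2, 5 were called higher than on Matrigel and 1, MBP, lower (log2 fold change −0.41 ± 0.12, adjusted p = 0.0435, edgeR). Of all tested genes, 7.44% were called higher and 9.13% lower in that comparison. The cultures also expressed markers of other cells. Their levels are given in TPM, Salmon's abundance per transcript length, scaled to the same total in each library and not normalized further between libraries. The summed level of 8 neuronal genes was 755.3 to 787.9 TPM on Matrigel, 850.1 to 909.1 on VN and 921 to 944.8 on VNP2. Most of that sum was TUBB3, with means of 548, 551 and 569 TPM, which was not called (adjusted p = 0.584, edgeR). Against Matrigel, 6 of the 8 were called upward on VNP2 and 4 on VN, and 0 downward (edgeR, backgrounds 7.44% and 5.66% higher).

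Retinoic acid is made from retinol in a pair of oxidation steps, the second of which is carried out by retinaldehyde dehydrogenases such as ALDH1A2, while DHRS3 turns retinaldehyde back into retinol. Inside the cell it is bound by CRABP1 and CRABP2, broken down by the cytochrome P450 enzymes CYP26A1 and CYP26B1, and sensed by the nuclear receptors RARA, RARB and RARG, which bind DNA as dimers with the RXR receptors. In the developing hindbrain and spinal cord it sets rostrocaudal position and promotes neuronal and motor neuron fates, and CYP26A1, RARB, DHRS3 and CRABP2 are textbook targets of its receptors.

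The receptor dimer binds direct repeats of a 6-base motif, and repeats with a spacer of 5 bases (DR5) are the classic element of retinoic acid response. A search of RefSeq promoter windows, 250 bases before to 50 bases after each start (GRCh38.p14), looked on both strands for 2 copies of the motif in the same orientation. A copy could be the consensus AGGTCA, a variant with a T in place of one G, AGTTCA, a variant that starts with G, namely GGGTCA, or the variant with both changes, GGTTCA. A DR5 was present in 31 of 35116 windows (0.0883%). Of the 19 windows of the 9 genes it was present in 2, one of RARB and one of CYP26A1. Repeats with a spacer of 1 or 2 bases were found in 0.131% and 0.0399% of all windows and in none of the 19. The sequences below are shown because these are the 2 genes of the 9 with a DR5, and both were lower on VNP2 than on Matrigel. Capitals mark the 2 motif copies.
RARB, chr3:25428163-25428262, plus strand: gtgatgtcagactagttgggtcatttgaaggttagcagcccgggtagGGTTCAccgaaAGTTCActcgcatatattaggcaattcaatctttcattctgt
CYP26A1, chr10:93073797-93073825, minus strand: acaattAGTTCAcccaaAGTTCAtcttta
The RARB repeat lay 53 to 37 bases before the RefSeq start at 25428263, in no annotated exon and within an intron of the longer transcript RARB-202. The CYP26A1 repeat lay 90 to 74 bases before the start at 93073893, in the opposite orientation to the gene and within an exon of transcript CYP26A1-202. Binding of the receptors to these matches was not measured here. The absence of a match from the windows of the other 7 genes says only that the letters are not there.

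Of the 8 genes whose gene counts were complete, 5 differed across the 3 substrates in edgeR's quasi-likelihood test at a Benjamini-Hochberg adjusted p under 0.05, where 19.3% of the 18201 tested genes did. Against Matrigel, 3 of the 8 were called on VN (background 15.3%, with 5.66% higher and 9.6% lower), namely CYP26B1 and CRABP1 upward and CRABP2 downward. On VNP2, 4 of the 8 were called against Matrigel (background 16.6%, with 7.44% higher and 9.13% lower), namely CRABP1 upward and CRABP2, CYP26A1 and RARB downward. Between VNP2 and VN, 2 of the 8 were called (background 5.1%, with 2.01% lower), CYP26B1 and RARB, both lower on VNP2. The ninth gene, CYP27C1, is described separately from the deposited table, because few of its reads fell in matched transcripts. The median log2 fold change of the 8 genes was −0.01 on VN, −0.14 on VNP2 against Matrigel and −0.08 on VNP2 against VN, beside medians of 0.00 over all tested genes. The comparisons with Matrigel share its 2 libraries.

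**Figure D1:**
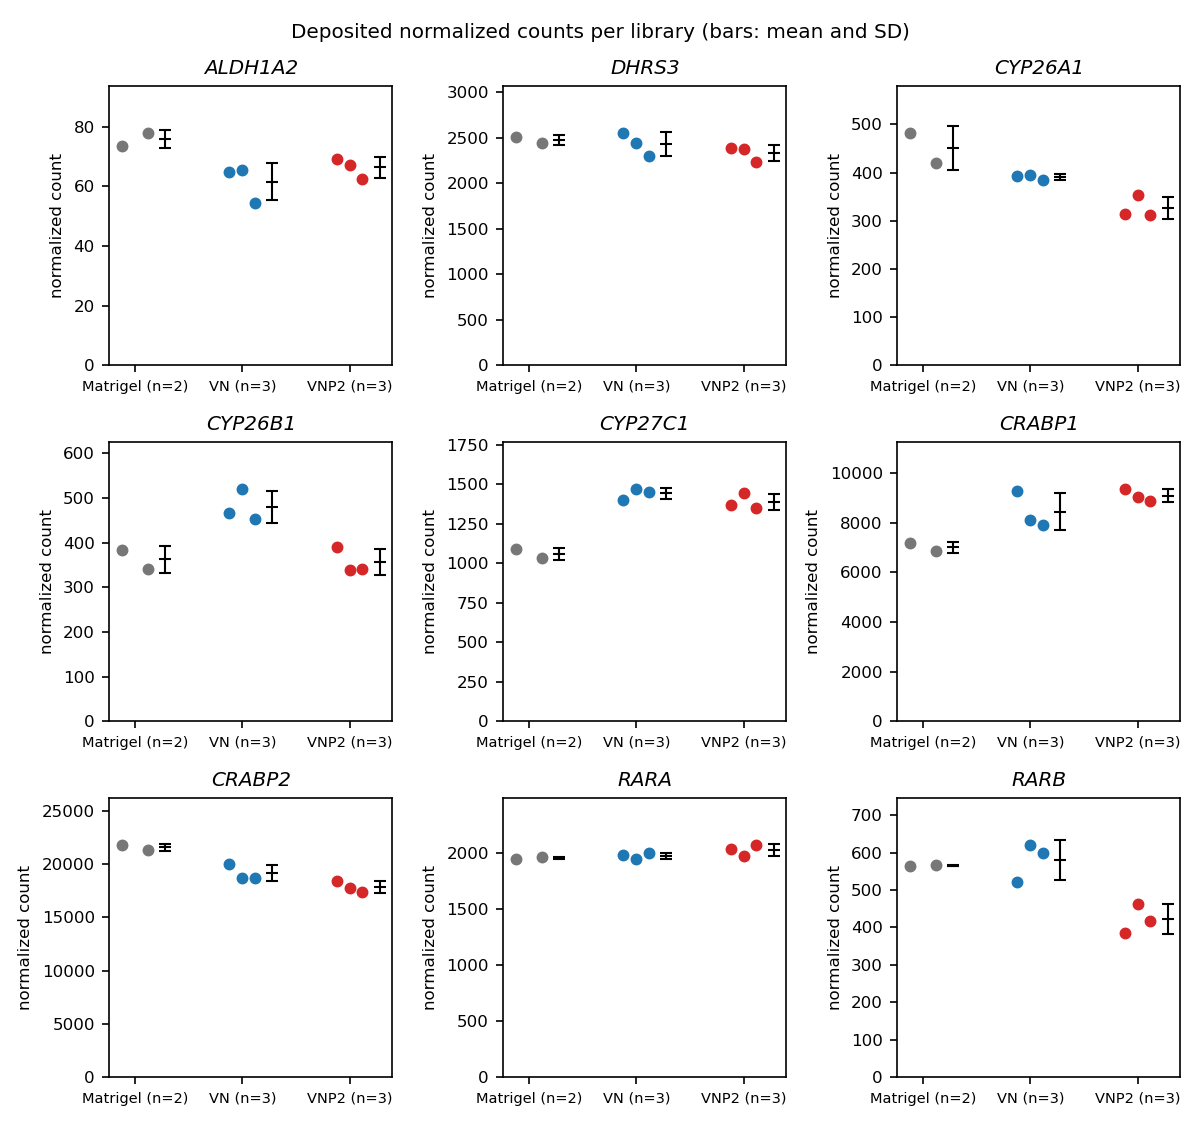
Normalized counts in the deposited table (vertical axes, from 0) for each of the 9 genes in the 2 Matrigel, 3 VN and 3 VNP2 libraries; each point is a library and the bar beside it gives the mean and SD. RARB was lowest in the 3 VNP2 libraries (385 to 463.4), CYP26B1 highest in the 3 VN libraries (451.7 to 520.7), and CYP27C1 lowest in the 2 Matrigel libraries (1033 and 1087).

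In the deposited table, 6 of the 9 genes had libraries that did not overlap between VN and Matrigel (background 45.4% of 17931 genes). Between VNP2 and Matrigel this held for 8 of 9 (background 49.2%) and between VNP2 and VN for 4 of 9 (background 24%). With 2 libraries on Matrigel such separation is common, so calls below rest on the fit. The normalized counts of a gene cannot be compared with those of another, since they were not divided by length. Where fewer cells of a type express a gene, and where each cell holds less of its RNA, these bulk libraries give the same value, and the 2 cannot be told apart.

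Per length, the genes differed widely in TPM. CRABP2 was highest at 896.2 to 1067 TPM over the 8 libraries, followed by CRABP1 at 453.9 to 647.2. DHRS3 stood at 49.4 to 55.95 TPM and RARA at 35.65 to 40 TPM. CYP26A1 (9.191 to 13.5 TPM) and RARB (6.898 to 11.35 TPM) were the only neighbours in the order whose ranges over the libraries overlapped, although CYP26A1 was the higher in 8 of 8 libraries. CYP26B1 followed at 3.683 to 5.969 TPM, and ALDH1A2 was lowest at 2.145 to 2.884 TPM. CYP27C1 has no place in this order, because most of its reads fell in transcripts outside the annotation used for lengths.

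**Figure D2:**
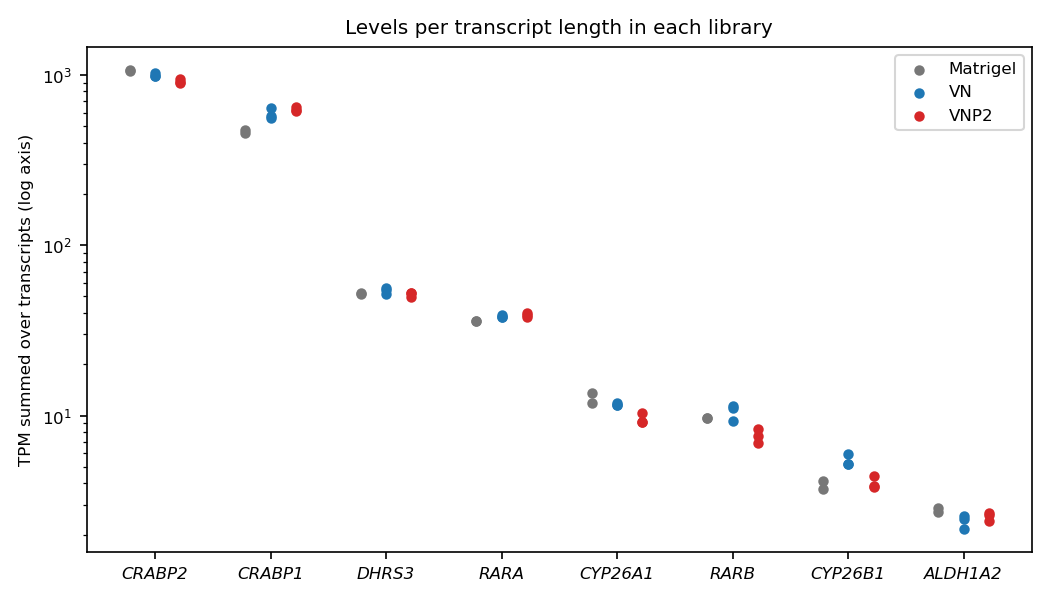
Levels per transcript length (TPM, log axis) of 8 of the genes, ordered by their median, with 1 point per library and colours for the 3 substrates. The binding proteins CRABP2 and CRABP1 lie at 453.9 TPM or more in every library, and ALDH1A2 lies below 3 TPM in every library.

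Among the enzymes of synthesis, ALDH1A2, which makes retinoic acid from retinaldehyde, was near the limit of what these libraries could resolve. The gene lies on chromosome 15 at 57953424 to 58497866 (minus strand; GRCh38, as all gene positions here). Its normalized counts were 73.64 and 78.0 on Matrigel, 64.81, 65.34 and 54.44 on VN, and on VNP2 69.29, 67.24 and 62.43. Both Matrigel libraries were above all others, but the differences did not pass the test: the log2 fold change was −0.30 ± 0.18 (SE) on VN (adjusted p = 0.283, edgeR) and −0.19 ± 0.17 on VNP2 (adjusted p = 0.519, edgeR). VNP2 and VN differed by 0.11, with a 95% interval of −0.23 to 0.45.

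The sign of the ALDH1A2 difference depended on how transcript length was handled. Each library held only 50 to 83 estimated counts for the gene. Of these, 10.11 to 17.0 fell in short noncoding processed transcripts, yet those made up 60.2 to 79.9% of its TPM. The protein-coding transcripts alone had 27.69 and 44.32 estimated counts on Matrigel, 44.75 to 55.78 on VN and 49.86 to 63.6 on VNP2, all above the Matrigel values. In TPM they were 0.438 and 0.58 on Matrigel, 0.726 to 0.988 on VN and 0.756 to 0.924 on VNP2, as the plot of transcripts shows. Without length offsets the ALDH1A2 log2 fold changes became 0.27 on VN (adjusted p = 0.368, edgeR) and 0.40 on VNP2 (adjusted p = 0.193, edgeR).

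DHRS3, the retinaldehyde reductase, did not pass any test. The gene is on chromosome 1 at 12567910 to 12617731 (minus strand). It had 2513 and 2440 normalized counts on Matrigel and 2557, 2444 and 2298 on VN, against 2387, 2379 and 2234 on VNP2. The VN libraries spanned both Matrigel values, while the VNP2 libraries lay just below them. The log2 fold change was −0.03 on VN (95% interval −0.15 to 0.10), −0.09 on VNP2 (−0.21 to 0.04) and −0.06 between VNP2 and VN (−0.17 to 0.05), so changes beyond about 0.21 in either direction lay outside these intervals. Nearly all of its TPM, 98.5 to 99.5%, came from the transcripts that start at the upstream end of the gene.

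**Figure D3:**
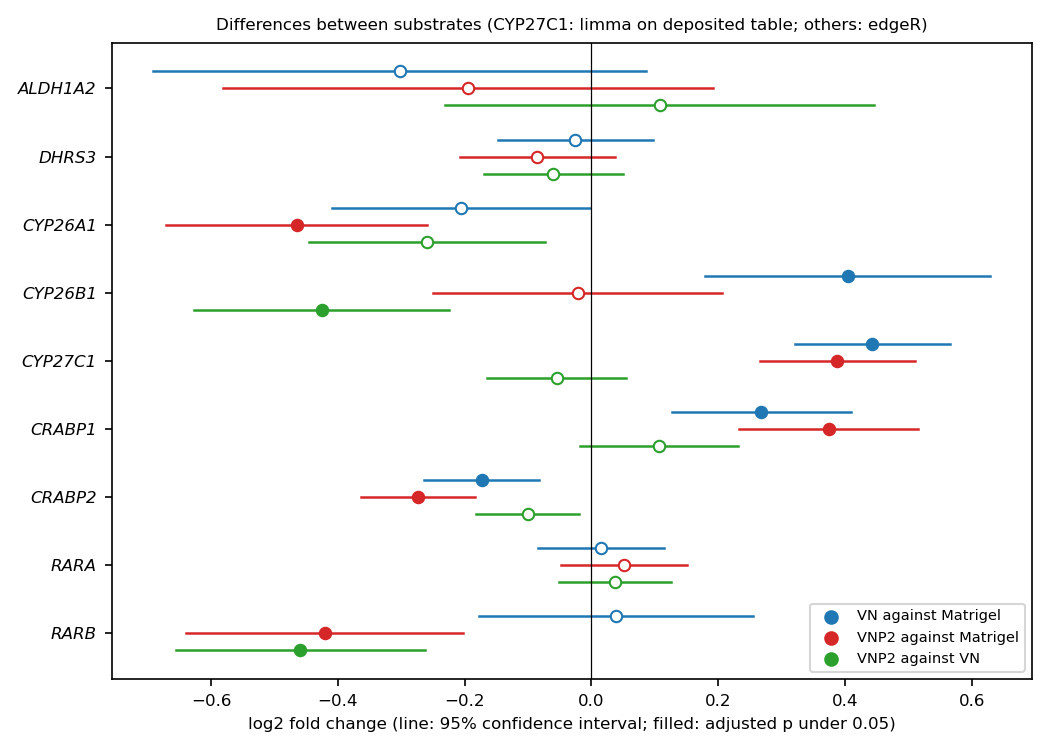
Log2 fold change of each gene for VN against Matrigel, VNP2 against Matrigel and VNP2 against VN (horizontal axis), with 95% confidence intervals; filled points have an adjusted p under 0.05. RARB and CYP26A1 lie to the left on VNP2 against Matrigel (−0.42 and −0.47), CYP26B1 to the right on VN (0.40), and all intervals of RARA and DHRS3 include 0.

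The P450 enzymes of retinoic acid breakdown did not follow the same order over the substrates. CYP26A1, the isoform most directly induced by retinoic acid, is on chromosome 10 at 93073475 to 93077890 (plus strand). Its normalized counts were 483.0 and 419.0 on Matrigel, 393.2, 394.5 and 384.7 on VN, and on VNP2 314.0, 353.3 and 312.0. No library of one substrate fell within the range of another, with Matrigel highest and VNP2 lowest. On VNP2 it fell by 27.6% against Matrigel (log2 fold change −0.47 ± 0.09, adjusted p = 0.00615, edgeR). The steps from Matrigel to VN (−0.21 ± 0.09, adjusted p = 0.162) and from VN to VNP2 (−0.26 ± 0.08, adjusted p = 0.116) did not pass the edgeR test. The VNP2 call was lost without Matrigel replicate 2, the higher of the Matrigel libraries, where the log2 fold change was −0.35 (adjusted p = 0.0824, edgeR).

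The CYP26A1 transcripts were split unevenly between libraries. A transcript annotated as subject to nonsense-mediated decay was assigned 5.89 TPM in Matrigel replicate 2, 3.58 TPM in VN replicate 2 and 2.65 TPM in VNP2 replicate 2, and 0 in the other 5 libraries. Protein-coding transcripts thus held between 45.0 and 91.1% of its TPM. The decay transcript was above 0 in 1 library of each substrate, replicate 2 each time, so this split went with the replicate number. In TPM, the protein-coding transcripts had 6.08 and 10.3 on Matrigel, 10.1, 7.88 and 9.12 on VN, and on VNP2 8.37, 6.4 and 7.04. Their libraries thus overlapped between the substrates, with Matrigel replicate 2 the lowest. The fall on VNP2 was called on the whole gene, and the coding transcripts alone were not tested.

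CYP26B1, the other breakdown enzyme, is on chromosome 2 at 72129238 to 72148038 (minus strand). It had 383.7 and 340.9 normalized counts on Matrigel and 465.6, 520.7 and 451.7 on VN, against 390.6, 338.6 and 340.3 on VNP2. The 3 VN libraries were above all others, and Matrigel and VNP2 overlapped. CYP26B1 rose by 32.3% on VN against Matrigel (log2 fold change 0.40 ± 0.10, adjusted p = 0.0230, edgeR) and was 25.5% lower on VNP2 than on VN (−0.43 ± 0.09, adjusted p = 0.0232, edgeR). VNP2 and Matrigel differed by −0.02, with a 95% interval of −0.25 to 0.21.

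The CYP26B1 calls were close to the threshold. The rise on VN was lost without length offsets (adjusted p = 0.0503, edgeR), and without Matrigel replicate 2 (0.0537), Matrigel replicate 3 (0.183) or VN replicate 2 (0.0711). The difference between VNP2 and VN was lost without VN replicate 2 (adjusted p = 0.0884, edgeR), VNP2 replicate 2 (0.0861) or VNP2 replicate 3 (0.0904). The summed level of 12 mesenchymal and meningeal marker genes was also highest on VN, at 541 to 549.5 TPM on Matrigel, 611.7 to 650.4 on VN and 534 to 568.9 on VNP2, with none of the 12 at 0. Its members did not share that order: COL1A1, a fibrillar collagen, had means of 159, 116 and 63.1 TPM on Matrigel, VN and VNP2. Of the 12 genes, 3 were called upward and 2 downward for VN against Matrigel (edgeR, backgrounds 5.66% and 9.6%). For VNP2 against Matrigel, 6 were called upward and 2 downward (edgeR, backgrounds 7.44% and 9.13%). The part of these cells in the CYP26B1 result was not tested.

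The transcripts of CYP26B1 did not have the same order over the substrates. Those starting at the upstream end of the gene (72147862 to 72148038) had 3.29 and 3.55 TPM on Matrigel, 3.84, 4.66 and 4.05 TPM on VN, and on VNP2 2.47, 2.12 and 1.23 TPM. The transcript CYP26B1-202, which starts at 72143084, had 0.603 and 0 TPM on Matrigel and 1.2, 0.926 and 0.756 TPM on VN, against 1.46, 1.47 and 1.81 TPM on VNP2. The 3 VNP2 libraries were thus the lowest for the upstream start and the highest for CYP26B1-202, and the share of the upstream start was 80.1 to 96.4% on Matrigel, 73.7 to 78.1% on VN and 32 to 56.2% on VNP2. These shares were noticed after the values were seen and are given without a test. They rest on Salmon's division of reads between transcripts that share most of their exons.

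**Figure D4:**
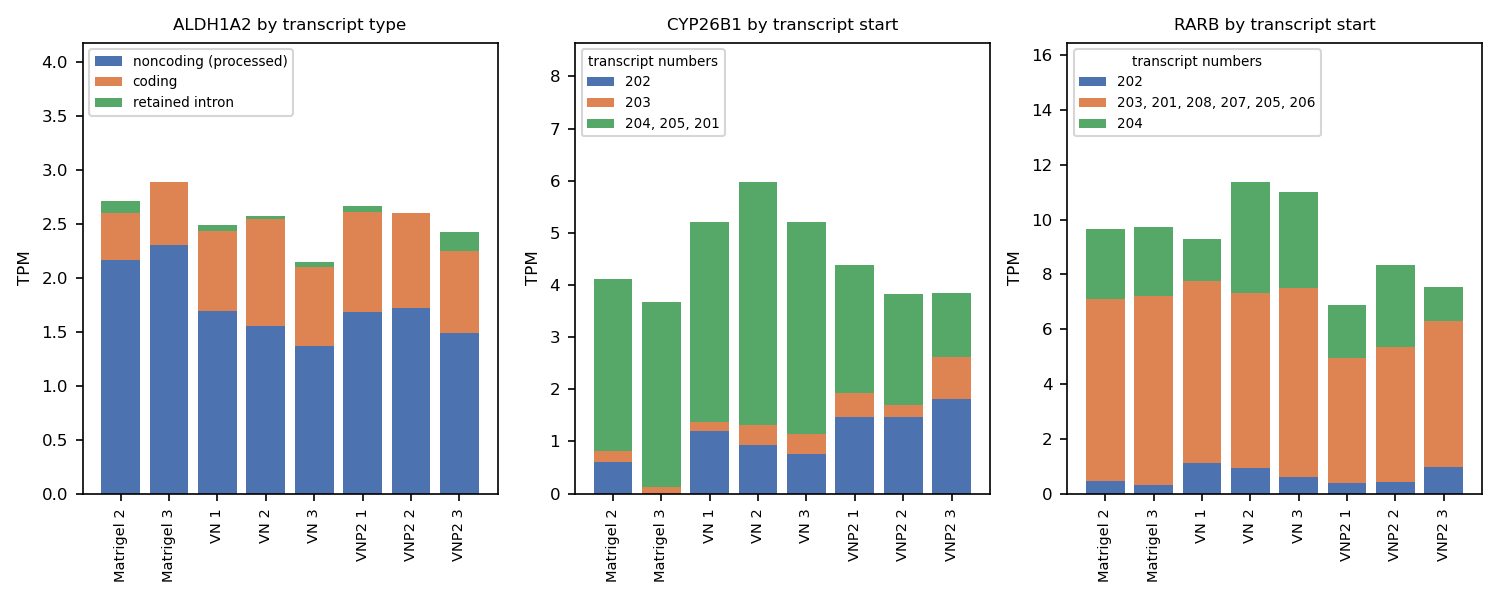
TPM in each of the 8 libraries (bars from 0, stacked) for ALDH1A2 by annotated transcript type and for CYP26B1 and RARB by transcript start; numbers in the keys are the annotated transcript numbers. The upstream start of CYP26B1 (204, 205 and 201) is smallest in the 3 VNP2 libraries, and in RARB the middle start near the DR5 (203 and others) is 4.57 to 5.33 TPM on VNP2 against 6.4 to 6.91 TPM elsewhere.

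CYP27C1 encodes a P450 that desaturates all-trans retinoids in human skin and so converts vitamin A1 to A2. It is on chromosome 2 at 127184120 to 127220078 (minus strand). Its normalized counts in the deposited table were 1087 and 1033 on Matrigel, 1402, 1472 and 1451 on VN, and on VNP2 1367, 1447 and 1348. Both Matrigel libraries were below the other 6, and VN and VNP2 overlapped. On the scale of log2(normalized count + 1), limma gave a rise of 0.44 ± 0.06 on VN (adjusted p = 0.000309) and of 0.39 ± 0.06 on VNP2 (adjusted p = 0.000579). The background of calls in this table was 16.8% for VN and 17.7% for VNP2 against Matrigel. VNP2 and VN differed by −0.06 (95% interval −0.16 to 0.05, adjusted p = 0.585, limma), against a background of 5.58%. The calls against Matrigel were kept without each library in turn, where the adjusted p was at most 0.0122 (limma).

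The size of the CYP27C1 difference could not be taken from the transcripts that matched the annotation used here. Only 2 of its transcripts matched, and they carried a 0.219 share of the mean of the deposited table, whereas the share was 1 for the other 8 genes. Those 2 transcripts had 0 estimated counts in Matrigel replicate 2, 143.1 in Matrigel replicate 3 and 312.2 to 425.0 in the other 6 libraries. An edgeR fit on them alone gave log2 fold changes of 2.35 on VN (adjusted p = 0.0386) and 2.46 on VNP2 (adjusted p = 0.0295), far above those of the whole gene.

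The cellular retinoic acid binding proteins moved in opposite directions. CRABP1, which holds retinoic acid in the cytoplasm, is on chromosome 15 at 78340324 to 78348230 (plus strand). It had 7162 and 6842 normalized counts on Matrigel and 9274, 8118 and 7897 on VN, against 9367, 9008 and 8848 on VNP2. Both Matrigel libraries were the lowest. It rose by 20.4% on VN (log2 fold change 0.27 ± 0.06, adjusted p = 0.0184, edgeR) and by 29.6% on VNP2 (0.37 ± 0.06, adjusted p = 0.00255, edgeR).

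The CRABP1 call on VNP2 held under every alternative that was run, whereas the call on VN was lost without length offsets (adjusted p = 0.0865, edgeR) and without Matrigel replicate 2 (0.0673) or Matrigel replicate 3 (0.141). VNP2 and VN overlapped and differed by 0.11 (95% interval −0.02 to 0.23, adjusted p = 0.338, edgeR). VN replicate 1, at 9274, stood above the other VN libraries, and without it the difference was 0.18 (adjusted p = 0.0128, edgeR).

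CRABP2, which delivers retinoic acid to the receptors in the nucleus, is on chromosome 1 at 156699606 to 156705816 (minus strand). It had 21810 and 21340 normalized counts on Matrigel, 20000, 18680 and 18710 on VN, and on VNP2 18410, 17750 and 17350. The 3 substrates did not overlap, and the order was that of CYP26A1. CRABP2 fell by 11.3% on VN (log2 fold change −0.17 ± 0.04, adjusted p = 0.0171, edgeR) and by 17.3% on VNP2 (−0.27 ± 0.04, adjusted p = 0.00104, edgeR). The step from VN to VNP2 was −0.10 ± 0.04 (adjusted p = 0.162, edgeR).

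The CRABP2 call on VNP2 held under every alternative that was run. The call on VN was lost without Matrigel replicate 2 (adjusted p = 0.139, edgeR), Matrigel replicate 3 (0.0745), VN replicate 2 (0.0556) or VN replicate 3 (0.0589). In TPM, the ratio of CRABP2 to CRABP1 was 2.26 and 2.32 on Matrigel, 1.6, 1.71 and 1.76 on VN, and 1.46 in each of the 3 VNP2 libraries. The excess of CRABP2 over CRABP1 was therefore largest on Matrigel and smallest on VNP2, and the ratio itself was not tested.

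Of the receptors, RARA, the isoform expressed in most tissues, did not pass any test. It is on chromosome 17 at 40309192 to 40357643 (plus strand). Its normalized counts were 1953 and 1963 on Matrigel and 1987, 1949 and 1999 on VN, against 2035, 1973 and 2078 on VNP2. The whole range over the 8 libraries was narrow, with VNP2 just above Matrigel. The log2 fold change was 0.01 on VN (95% interval −0.08 to 0.11), 0.05 on VNP2 (−0.05 to 0.15) and 0.04 between VNP2 and VN (−0.05 to 0.13). Its largest group of transcripts by start, at 40341388 to 40342399, held 42.4 to 48.5% of its TPM.

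RARB, the receptor gene that retinoic acid itself induces, was lower on VNP2 than on either other substrate. It is on chromosome 3 at 25174332 to 25597932 (plus strand). It had 565.1 and 565.5 normalized counts on Matrigel, 520.8, 621.2 and 599.8 on VN, and on VNP2 385.0, 463.4 and 418.0. The 3 VNP2 libraries were below all others, and the VN libraries lay on both sides of Matrigel. RARB was 25.3% lower on VNP2 than on Matrigel (log2 fold change −0.42 ± 0.10, adjusted p = 0.0150, edgeR) and 27.3% lower than on VN (−0.46 ± 0.09, adjusted p = 0.0140, edgeR). VN and Matrigel differed by 0.04 (95% interval −0.18 to 0.25).

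The RARB difference from Matrigel lost its call without Matrigel replicate 2 (adjusted p = 0.0861, edgeR) or Matrigel replicate 3 (0.0884). That from VN lost it without VN replicate 2 (adjusted p = 0.0606, edgeR), VN replicate 3 (0.0568), VNP2 replicate 1 (0.0619) or VNP2 replicate 3 (0.0560). The log2 fold change stayed between −0.53 and −0.40 for VNP2 against VN as each library was left out.

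The transcripts of RARB that start next to the DR5 printed above, at 25428263 to 25428716, held 56.3 to 71.4% of its TPM. They had 6.66 and 6.88 TPM on Matrigel and 6.64, 6.4 and 6.91 TPM on VN, against 4.57, 4.96 and 5.33 TPM on VNP2. All 3 VNP2 libraries were below the other 5, so the start near the repeat was lower on VNP2 together with the whole gene. The transcript RARB-204, which starts at 25458310, varied within substrates, from 1.53 to 4.03 TPM on VN. In TPM, RARA exceeded RARB 3.7- and 3.71-fold on Matrigel, 3.35- to 4.08-fold on VN and 4.55- to 5.65-fold on VNP2.

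Some of the 9 genes share exon bases with another annotated gene: ALDH1A2, CRABP1, RARA and RARB with genes on the opposite strand, among them TOP2B for RARB, and CYP26A1 with AL358613.3 on the same strand. The libraries were stranded, but whether the quantification used strand is not given in the sources used here, so reads of these overlaps are uncertain.

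Other genes of retinoid handling were counted from lists. Of 12 genes for uptake, storage and binding, 7 were tested and 2 were called across the substrates (background 19.3%). STRA6, the receptor that takes up retinol from its carrier in blood and a gene induced by retinoic acid, had mean normalized counts of 609.2 ± 45.0 (SD, n = 2), 846.2 ± 23.6 (n = 3) and 1015 ± 22.1 (n = 3) on Matrigel, VN and VNP2. It rose on VN (log2 fold change 0.47 ± 0.07) and on VNP2 (0.74 ± 0.07), and was higher on VNP2 than on VN (0.26 ± 0.06), all called in edgeR. FABP5, a fatty acid binding protein that can carry retinoic acid to another receptor, fell by 0.22 on VN and by 0.32 on VNP2 on the log2 scale.

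Of 18 retinol and retinaldehyde oxidoreductases, 9 were tested and 1 was called across the substrates (background 19.3%), RDH11, which was lower on VN (log2 fold change −0.19) and VNP2 (−0.17). RDH10, the main retinol dehydrogenase of the embryo, was not called, at 527.5 ± 72.4 (SD, n = 2), 550.3 ± 67.7 (n = 3) and 590.0 ± 133 (n = 3) normalized counts. Among the dehydrogenases related to ALDH1A2, ALDH1A1 rose, from 34.73 ± 5.93 normalized counts on Matrigel (SD, n = 2) to 92.25 ± 9.85 on VN (n = 3) and 64.57 ± 11.9 on VNP2 (n = 3). Its log2 fold changes were 1.42 ± 0.23 (adjusted p = 0.00239, edgeR) and 0.90 ± 0.23 (adjusted p = 0.0229, edgeR), at levels of only 0.818 to 2.3 TPM. ALDH1A3 was not called, and CYP26C1 had 7 estimated counts over all 8 libraries and was not tested.

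The other receptors tested were RARG, RXRA, RXRB, RXRG and PPARD, and the lowest adjusted p among these 5 across the substrates was 0.0766, for PPARD (edgeR). PPARD, which binds fatty acids and can respond to retinoic acid carried by FABP5, was lower on VNP2 than on Matrigel (log2 fold change −0.23 ± 0.07, adjusted p = 0.0389, edgeR). RXRA and RXRB had group means of 23.8 to 28.2 TPM, RARG 1.62 to 1.99 and RXRG 1.24 to 1.81. Of 11 coregulators tested, 2 were called across the substrates, a share near the background of 19.3%, NCOA3 (0.28 on VN and 0.29 on VNP2) and TBL1X (0.12 and 0.17), both higher off Matrigel.

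A list of 26 genes known to be induced by retinoic acid, without the 9 genes above, did not move in 1 direction. Of 23 tested, 11 were called across the substrates in edgeR (background 19.3%). On VN 7 were higher and 3 lower than on Matrigel, and on VNP2 6 were higher and 4 lower, beside backgrounds of 5.66% higher and 9.6% lower on VN and 7.44% and 9.13% on VNP2. The median log2 fold change was 0.15 on VN and 0.12 on VNP2, beside 0.00 over all tested genes. Against Matrigel, HOXB3, HOXB4 and HOXB5 were called upward on VN (log2 fold change 0.41, 0.37 and 0.42, edgeR) and on VNP2 (0.26, 0.32 and 0.43). HOXA5 (0.29) and HOXC5 (0.38) were called upward on VN only, and HOXA4 was called downward on VNP2 (−0.22). The other HOX genes of the list were not called. Between VNP2 and VN, 1 was higher, MEIS1, and 1 was lower, HOXA4 (backgrounds 3.09% and 2.01%).

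The largest changes in that list were falls. TGM2, a transglutaminase, fell from 75.39 ± 4.6 normalized counts on Matrigel (SD, n = 2) to 24.77 ± 5.84 on VN (n = 3) and 19.26 ± 3.1 on VNP2 (n = 3). BHLHE40, a transcriptional repressor that hypoxia also induces, fell from 231.7 ± 0.628 to 85.15 ± 8.44 and 90.46 ± 2.38. RET, a receptor tyrosine kinase of motor and enteric neurons, was higher on VNP2 by 1.22 ± 0.31 on the log2 scale (adjusted p = 0.0227, edgeR). MEIS1 and NR2F2, transcription factors of the hindbrain and spinal cord, were higher on VNP2 than on Matrigel by 0.46 each on the log2 scale. MEIS2, in the same list, went the other way, at −0.18 on VN and −0.34 on VNP2, both called in edgeR. Its mean levels were 151, 141 and 124 TPM on Matrigel, VN and VNP2, beside 36.6, 44.2 and 52.9 TPM for MEIS1. Summed motor neuron markers were 22.14 to 23.67 TPM on Matrigel, 30.16 to 31.71 on VN and 40.6 to 42 on VNP2, an order that STRA6 and MEIS1 shared, and their part in these results was not tested.

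**Figure D5:**
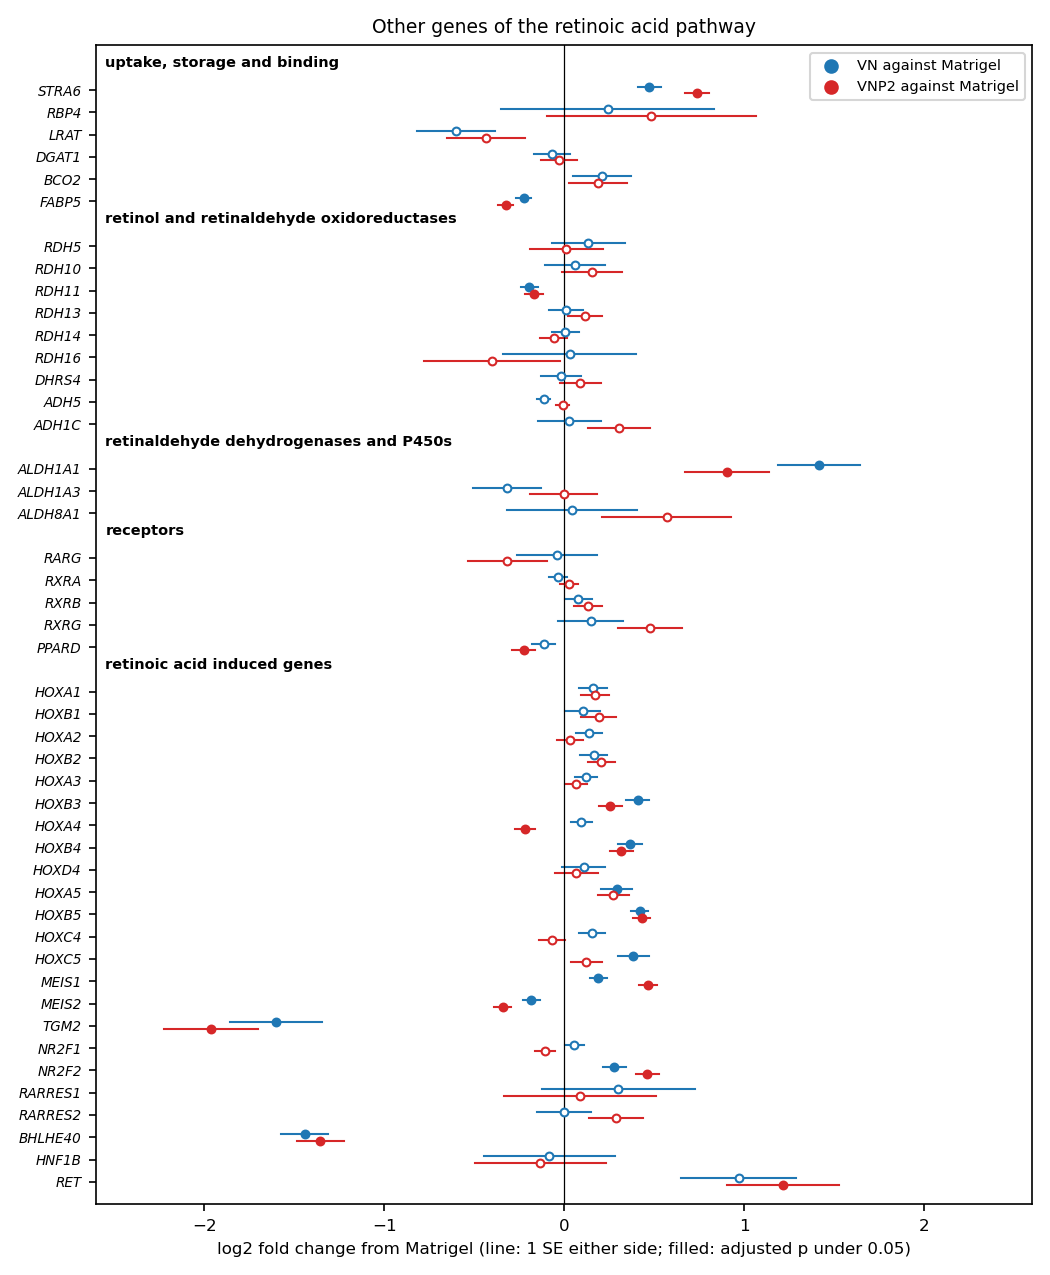
Log2 fold change from Matrigel on VN and on VNP2 (horizontal axis, lines 1 SE either side) for tested genes of retinoid handling outside the 9 and for genes induced by retinoic acid; filled points have an adjusted p under 0.05. STRA6 lies to the right on both substrates, TGM2 and BHLHE40 lie furthest to the left, and the HOX genes lie within 0.5 of 0. The filled HOX points lie to the right, except that of HOXA4 on VNP2.

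For each gene called across the substrates, the 3 most similar genes were ranked by Pearson's r of log2 normalized counts over the 8 libraries among 12995 genes with a mean of at least 100. The libraries of a substrate share their condition, so these values are descriptions. RARB was most like BCL2 (r = 0.977), then SOX21 (0.975) and FGFR1OP2 (0.972). CYP26A1 was most like CTSA, STON1 (0.978 each) and MRPS15 (0.972), and CYP26B1 most like MIR4453HG (0.987), VCAN (0.973) and ELAC1 (0.962). CRABP1 was most like SMARCA4 (0.985), CDC42EP4 (0.977) and ZNF230 (0.975), and CRABP2 most like SPSB1 (0.985), FAT1 and RGMA (0.982 each).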

How the data were processed

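Polyadenylated RNA of 8 libraries was sequenced as stranded paired-end reads. The authors trimmed adapters with Trim Galore and quantified GENCODE v32 transcripts with Salmon, whose versions are not given in the sources used here. The deposited estimated counts and TPM of the authors are Salmon's values per transcript. A second deposited file gives the authors' normalized counts of 23350 genes, a signal corrected for depth and transcript length with tximport and DESeq2 1.27.12.

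Here, 205225 of 226608 transcripts, with 98.79 to 98.88% of the counts, were matched by identifier to GENCODE v29 (GRCh38), summed per gene and rounded. Transcripts absent from v29 were not used, so CYP27C1 was taken from the deposited table. Genes were filtered with filterByExpr (minimum count 10, total 15), and one edgeR 4.0.16 quasi-likelihood fit (R 4.3.3) with TMM and length offsets held all 8 libraries without a block. The deposited table was tested with limma 3.58.1 (trend) on log2(value + 1) for genes with a mean of at least 10. Two-sided p-values were adjusted over all tested genes (Benjamini-Hochberg), with a threshold of 0.05. Standard errors are the log2 fold change divided by the square root of F. Scripts were tested on simulated data.

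The genes and lists were chosen with earlier results of these data known. The text names all 9 genes, at most 5 called genes of each list with the largest log2 fold change, relatives of the 9 (ALDH1A1, ALDH1A3, CYP26C1, RARG, the RXR genes, RDH10, STRA6, FABP5) and the 3 most similar genes. Others were chosen after their values were seen. One listed gene is not reported here. Alternatives were DESeq2 1.42.0, RLE, no length offsets, no filter, a filter of 50 counts per library, a block for replicate number, a fit of the compared pair alone, the deposited table, and each library left out. For CYP27C1 they were log2(value + 5), no filter, edgeR on the matched transcripts, the block, the pair alone and each library left out.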

Additional observations from a re-analysis of the deposited data

How the results depend on the processing

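Of 384 values under alternatives of the 8 genes tested on gene counts, 351 kept their direction and their side of the threshold, 21 lost and 3 gained a call, and 9 changed sign, all 9 of them in differences that were not called. CYP27C1 kept both calls against Matrigel under 13 of 13 alternatives, among them the edgeR fit on its matched transcripts, which hold part of the gene. Its difference between VNP2 and VN, which was not called, changed sign under 1 of 13. The number of genes called across the substrates, 3518, fell to 1879 and was at most 4975 as each library was left out, with 1188 to 3899 for VN against Matrigel (2778 with all), 1609 to 3608 for VNP2 against Matrigel (3016) and 547 to 1996 for VNP2 against VN (928). The lowest counts against Matrigel came without a Matrigel library: 1910 and 1879 across the substrates without replicates 2 and 3, 1226 and 1188 on VN, and 1637 and 1609 on VNP2, where the fit has only 1 Matrigel library, assumed to vary like the others. The 1996 came without VN replicate 1, and 582 and 578 without VN replicates 2 and 3.

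The sign changes were small or rested on length. Without length offsets they were 0.27 and 0.40 for ALDH1A2 on VN and VNP2, and −0.0476 for RARA on VN. As libraries were left out, DHRS3 on VN ranged from −0.0602 to 0.0156 and was above 0 at 0.00113 (without Matrigel replicate 2) and 0.0156 (without VN replicate 3), CYP26B1 on VNP2 against Matrigel ranged from −0.104 to 0.0716 and was above 0 at 0.0716, 0.015 and 0.0134 (without Matrigel replicate 2, VNP2 replicate 2 and VNP2 replicate 3), and RARB on VN ranged from −0.0114 to 0.113 and was below 0 at −0.0114 (without VN replicate 2). CYP27C1 between VNP2 and VN was 0.11 in edgeR on the matched transcripts only, which hold part of the gene.

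With a replicate block, CRABP2 passed the test between VNP2 and VN (log2 fold change −0.10, adjusted p = 0.0496, edgeR), no other call among the 9 genes changed, and 3992 genes were called across the substrates and 1146 between VNP2 and VN. Deviations from the group mean correlated between −0.133 and 0.161 for libraries with the same number. For libraries with different numbers the range was −0.199 to 0.207. Centring on 2 or 3 libraries constrains these values, so they cannot decide whether libraries with the same number belong together. The fit with a block is therefore not read as a paired result. Without length offsets, CYP26A1 passed the test between VNP2 and VN (−0.28, adjusted p = 0.0346, edgeR).

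A gene at the level of ALDH1A2 or TGM2 has wide standard errors. Shares between transcripts of a gene depend on Salmon's division of shared reads and were not tested.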

Other observations

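Of the 29 genes with a DR5 in a RefSeq promoter window, 11 were tested and 5 were called across the substrates in edgeR, beside 19.3% of all tested genes. Against Matrigel, 3 of the 11 were lower on VNP2 (background 9.13%), namely RARB, CYP26A1 and CFLAR. CFLAR, an inhibitor of caspase activation, had a log2 fold change of −0.32 ± 0.06 (adjusted p = 0.00458, edgeR). On VNP2, 1 was higher (background 7.44%), BATF2, a transcription factor of the interferon response (1.25 ± 0.23, adjusted p = 0.00438, edgeR). Between VNP2 and VN, RARB was lower and BATF2 higher (0.99 ± 0.20, adjusted p = 0.0192, edgeR). CFLAR was also lower on VN than on Matrigel (−0.35 ± 0.06, adjusted p = 0.00351, edgeR). The remaining gene called across the substrates was PHF8, a histone demethylase (adjusted p = 0.0490, edgeR), which was called in no single comparison. The genes with a DR5 were gathered after the values of RARB and CYP26A1 had been seen. Both are among the 5 called across the substrates and among the 3 lower on VNP2 than on Matrigel, where CFLAR is the only other.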
